A study of Rattus norvegicus with 4 samples.

Results

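The genes described here are 10 markers of microglia, the resident macrophages of the brain, among them the 3 chains of complement component C1q: Cd14, Aif1, C1qa, C1qb, C1qc, P2ry12, Csf1r, Itgam, Cx3cr1 and Tyrobp. They were chosen by name, and every non-control probe whose accession belongs to one of them was taken from the 4 arrays. All 10 were found, out of 8927 genes named on the arrays. The arrays held RNA of cultured cells of Fischer 344 rats in 4 groups: stem cells from the adult hippocampus (HPC NSC), stem cells from the olfactory bulb (OB NSC), neurons derived from the hippocampal stem cells (HPC neu) and neurons derived from the olfactory bulb stem cells (OB Neu). The title of the series names insulin biosynthesis as its subject, and no treatment, time or age of the cultures was used here. Each group was measured on 1 array, whose RNA was mixed from 3 independent experiments, so no group has a spread between cultures.

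Microglia arise from yolk sac progenitors and not from neural stem cells, and they depend on signalling through the receptor encoded by Csf1r. They are the main source of C1q in the brain, where C1q binds targets and starts the classical complement pathway, which also marks synapses for removal. None of the 10 genes belongs to a single cell type only. Cd14 and the complement proteins outside C1q can also be made by other cells, and in RNA from a whole culture fewer cells of a type and less RNA per cell cannot be told apart.

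The headers place the stem cell arrays together on 1 slide and the neuron arrays together on a second slide, so slide and cell state cannot be told apart, whereas olfactory bulb and hippocampus were compared within a slide. Between 60.2% and 74.0% of probes were well above background, the scanner software's call that a spot exceeds its background. The lowest signal with that call lay between 8.52 and 15.6 units of fluorescence, and the median of the negative control spots between 2.07 and 3.74. Spots of the same probe differed by a median SD of 0.061 to 0.0935 log2 units, which is the noise of spots and not of cultures. Below, a level is the log2 signal minus the 75th percentile of its array, and values of a gene are given in the order hippocampal stem cells, olfactory bulb stem cells, hippocampal neurons and olfactory bulb neurons. Levels of different genes come from different probes and are not compared.

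The labelled cell types were set against their markers. The 6 fibroblast and pericyte markers named on the array summed to 0.106 and 0.126 times the 75th percentile signal on the stem cell arrays, and to 375.2 and 514.2 times on the neuron arrays. The 8 astrocyte markers summed to 6.92, 6.99, 129.0 and 129.5 times. The 7 neuron markers summed to 5.61, 4.0, 3.13 and 1.92 times, so their summed level was lower on the neuron array of each source. Members of that list went both ways: Tubb3 was lower by 6.63-fold and 8.47-fold, while Snap25 was higher by 15.6-fold and 8.43-fold and Stmn2 by at least 56.9-fold and at least 32.1-fold. The number of neuron markers well above background was 6, 5, 7 and 7 of 7. All 6 fibroblast and pericyte markers and all 8 astrocyte markers were well above background on both neuron arrays, against 1 of 6 and 3 to 4 of 8 on the stem cell arrays. The fibroblast, pericyte and astrocyte markers were higher on the same arrays as Cd14, Aif1, C1qa, C1qb and Tyrobp, and their part in the results below was not tested.

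The 10 genes fell into 3 patterns of detection. Cd14, Aif1 and C1qa were well above background on both neuron arrays and on neither stem cell array, a pattern shared by 7.46% of the 8927 genes. C1qb, C1qc, P2ry12, Csf1r and Tyrobp were well above background on all 4 arrays, as were 61.6% of genes. Itgam and Cx3cr1 were well above background on no array, as were 20.3% of genes. The summed signal of the 10 genes was 1.00 and 1.05 times the 75th percentile on the stem cell arrays, and 6.96 and 8.32 times on the neuron arrays.

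**Figure D1:**
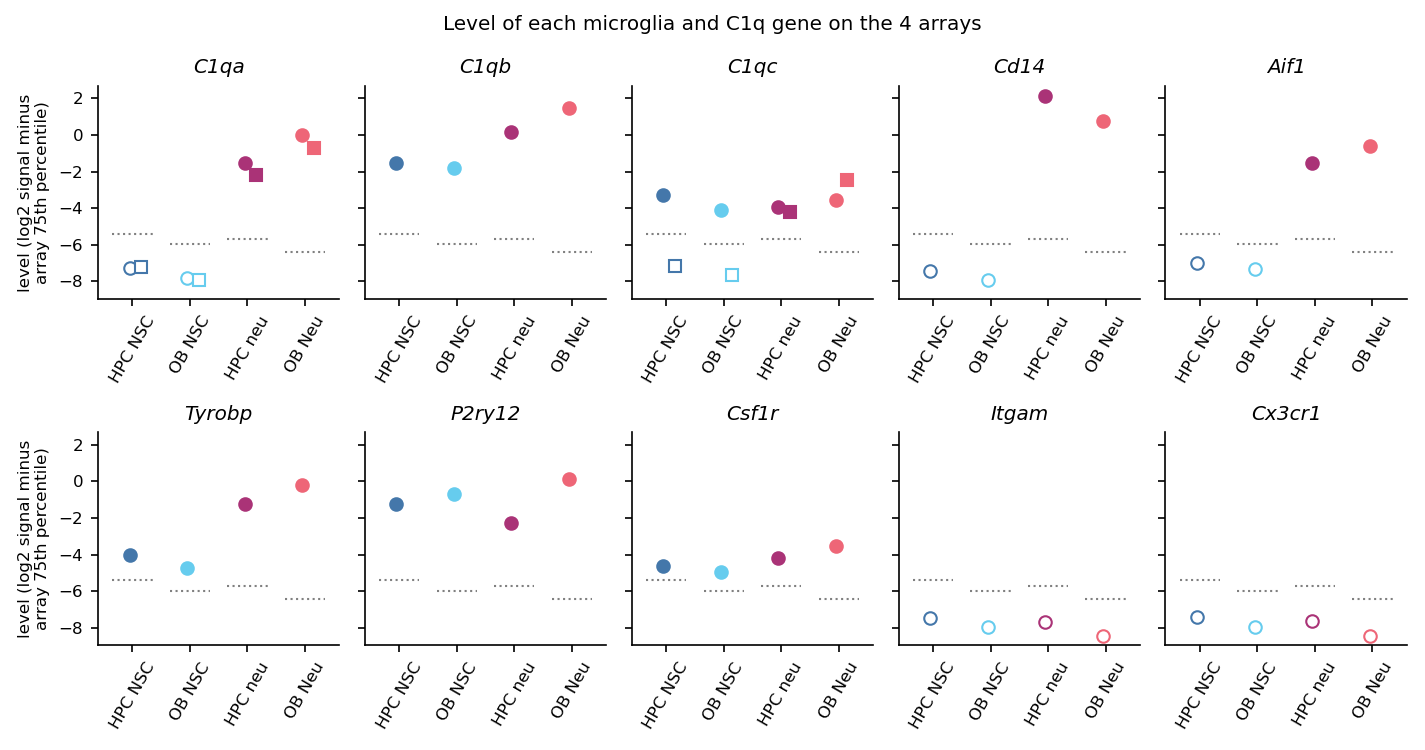
Level of each gene on the 4 arrays (vertical axis, log2 signal minus the 75th percentile of the array), 1 panel a gene. Circles are the probe used and squares a gene's other probe; filled symbols are well above background, open symbols are not, and the dotted line is the lowest level well above background on that array. Cd14, Aif1 and C1qa are filled on the neuron arrays only, while Itgam and Cx3cr1 are unfilled on all 4.

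C1qa and C1qb lie close together on rat chromosome 5, and both were higher on the neuron arrays, while Itgam is shown beside them as a member that was at background throughout. Each line gives the 250 bases before the annotated start, from RefSeq on the assembly GRCr8, 5′ to 3′ on the strand of the gene. These are chr5:154419934-154420183 on the minus strand for C1qa, chr5:154407828-154408077 on the minus strand for C1qb and chr1:192089342-192089591 on the plus strand for Itgam. Capitals mark 2 short motifs on either strand, GAGGAA, the core bound by the myeloid factor PU.1, and TGTGGT, bound by RUNX factors.

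C1qa: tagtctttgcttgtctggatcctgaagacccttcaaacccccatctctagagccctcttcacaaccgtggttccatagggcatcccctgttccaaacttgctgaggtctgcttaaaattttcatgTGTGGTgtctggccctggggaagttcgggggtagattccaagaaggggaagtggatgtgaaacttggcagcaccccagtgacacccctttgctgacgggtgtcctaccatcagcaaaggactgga

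C1qb: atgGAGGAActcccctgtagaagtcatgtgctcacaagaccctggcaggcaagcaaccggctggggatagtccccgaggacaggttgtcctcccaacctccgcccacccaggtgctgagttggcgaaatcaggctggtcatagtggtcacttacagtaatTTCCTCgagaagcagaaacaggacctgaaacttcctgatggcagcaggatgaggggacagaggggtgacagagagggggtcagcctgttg

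Itgam: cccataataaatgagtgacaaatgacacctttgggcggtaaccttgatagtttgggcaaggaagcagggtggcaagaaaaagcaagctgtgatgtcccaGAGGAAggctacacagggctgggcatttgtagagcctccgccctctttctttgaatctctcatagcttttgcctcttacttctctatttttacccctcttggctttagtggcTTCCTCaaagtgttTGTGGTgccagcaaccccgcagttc

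Of the 10 genes, 6 had a promoter in the table used, Cd14, C1qa, C1qb, Csf1r, Itgam and Cx3cr1. GAGGAA was found in 4 of the 6 (Cd14, C1qb, Csf1r and Itgam), against 23.2% of 27457 promoters of the same length. TGTGGT was found in 3 (C1qa, Itgam and Cx3cr1) against 14.1%. The longer run GAGGAAGT, which contains GAGGAA, was found in 0 of 6, against 2.04%. In C1qa the TGTGGT match begins at position -125, counted from the start. In C1qb the GAGGAA matches begin at -247 and -90, and in Itgam at -151 and -39, with a TGTGGT match at -25. A match of this kind is a run of letters and not a measured binding site.

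The first comparison asked how the neurons differed from the stem cells of the same source. Of the 8 genes that could be compared in hippocampal cells, 5 were higher by 2-fold or more on the HPC neu array and 1 was lower, with a median difference of 2.23 log2 units. Over all 6656 genes compared, 21.9% were higher and 26.8% lower by that much, with a median of -0.32. Of the 8 genes compared in cells of the olfactory bulb, 6 were higher and 0 lower on the OB Neu array, with a median of 3.92. There, 26.9% of 7022 genes were higher and 20.0% lower, with a median of 0.08. In both sources 3 of the genes that were higher, Cd14, Aif1 and C1qa, entered the comparison only through the neuron array, and their differences are lower bounds. Of the 5 genes well above background on both arrays, 2 were higher in hippocampal and 3 in olfactory bulb cultures. Over all genes with that detection, 832 of 5597 were higher in hippocampal and 1150 of 5771 in olfactory bulb cultures. The third of the olfactory bulb genes, Csf1r, fell short of 2-fold under normexp, quantile, median and spike-in scaling. Under each of these, 5 genes in all were higher in the olfactory bulb cultures. With 1 array a group these comparisons have no test and no replicate check.

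Cd14, the co-receptor that hands bacterial lipopolysaccharide to Tlr4, had the largest lower bound of the 10 genes in both sources, and since other differences are bounds too, their true order is not known. Its levels were -7.44, -7.92, 2.14 and 0.77, from signals of 2.81, 3.37, 3560.6 and 1236.1. Both stem cell signals were within the range of the negative controls, and the neuron signals were 227.8 and 145.1 times the lowest signal well above background. The difference was at least 7.56 log2 units (at least 188.3-fold) in hippocampal cells and at least 6.74 (at least 106.6-fold) in olfactory bulb cells. These bounds hold for the scaling used, and normexp, which adds an offset to every signal, gave 5.08 and 4.38. A second probe of Cd14 read 74.4, 3.19, 529.1 and 155.5. It was left out because its HPC NSC spot was marked as an outlier, and that spot was well above background although the probe used was not.

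Aif1 encodes Iba1, the calcium-binding protein most used to stain microglia. Its levels were -6.99, -7.34, -1.54 and -0.62, so both neuron arrays lay above both stem cell arrays. The difference was at least 3.87 log2 units (14.6-fold) in hippocampal cells and at least 5.35 (40.7-fold) in olfactory bulb cells, against 1.49 and 2.78 with normexp. Tyrobp, the adaptor DAP12 that signals for Trem2 and related receptors, was measured on all 4 arrays at -4.04, -4.74, -1.24 and -0.20. It was higher on the neuron arrays by 2.80 (6.97-fold) and 4.53 (23.1-fold), or by 1.52 and 2.98 with normexp. Trem2 itself had no named probe here.

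The C1q chains assemble into 1 protein, but their probes did not read alike. C1qa, the A chain, had levels of -7.26, -7.84, -1.53 and 0.02. It was higher on the neuron arrays by at least 3.88 (14.8-fold) and at least 5.99 (63.4-fold), against 1.55 and 3.56 with normexp. Its second probe gave at least 3.20 and at least 5.23, so both probes placed C1qa on the neuron arrays only. C1qb, the B chain, was well above background on the stem cell arrays as well, at -1.53, -1.82, 0.13 and 1.49. Its differences were 1.66 (3.16-fold) and 3.31 (9.93-fold).

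The 2 probes of C1qc, the C chain, disagreed. The probe used, which has the higher mean, hardly moved between arrays, with signals of 49.9, 48.3, 52.4 and 60.8 and differences of -0.66 and 0.50. The other probe read 3.36, 3.99, 43.8 and 129.7, was well above background on the neuron arrays only, and gave at least 1.21 and at least 3.48. The direction in hippocampal cells therefore depended on the probe, and which of them reads the C1qc transcript was not tested. With the other probe, C1qc had the detection pattern of C1qa.

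P2ry12, the ADP receptor of resting microglia, did not follow the genes above. Its levels were -1.24, -0.71, -2.30 and 0.13, with the HPC neu array lowest and the OB Neu array highest. The difference was -1.05 (2.07-fold lower) in hippocampal cells, and 0.84, below 2-fold, in those of the olfactory bulb. The hippocampal difference fell short of 2-fold with normexp (-0.91) and spike-in scaling (-0.61), and under spike-in scaling that of the olfactory bulb became -0.19. Csf1r, the receptor for the survival factors Csf1 and Il34, was dim on every array, at 1.72, 1.98, 2.88 and 7.48 times the lowest signal well above background. Its levels were -4.63, -4.94, -4.16 and -3.51, with differences of 0.47 and 1.44. The latter fell short of 2-fold at 0.70 with normexp, 0.83 with quantile, 0.90 with median and 0.41 with spike-in scaling, and the former was -0.31 with normexp.

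Itgam encodes CD11b, the alpha chain of complement receptor 3, and Cx3cr1 encodes the fractalkine receptor. Itgam read 2.76, 3.34, 3.95 and 2.11 units and Cx3cr1 read 2.82, 3.34, 4.01 and 2.12. Every one of these signals was about as large as its own error from the scanner software and near the median of the negative controls, so no fold is given. Each gene had a single probe, which limits the statement to what that probe could detect.

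**Figure D2:**
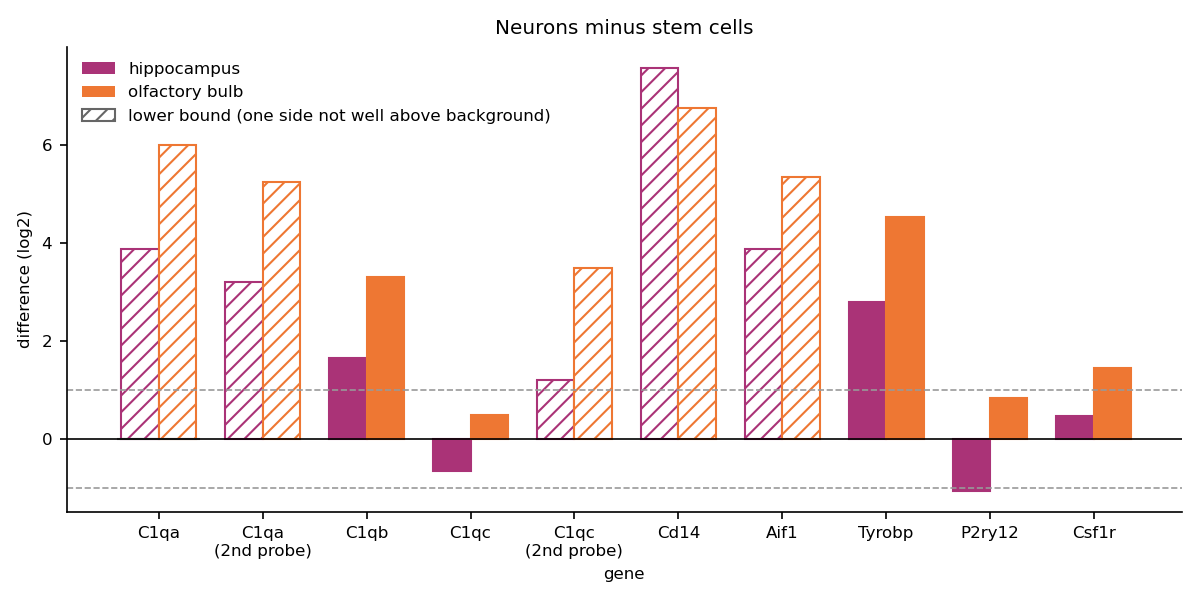
Difference between neurons and stem cells (vertical axis, log2) for each gene well above background on at least 1 array, with 1 bar for hippocampus and 1 for olfactory bulb. Hatched bars are lower bounds because 1 side was not well above background, and dashed lines mark 2-fold. Cd14 shows the tallest bars, and the probe of C1qc used and P2ry12 are below 0 in hippocampus and above 0 in olfactory bulb.

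State was also tested over all 4 arrays with limma, in an additive model of state and source that has 1 residual degree of freedom and uses measured values with no floor. At a Benjamini-Hochberg adjusted p under 0.05 it called 22.5% of 7111 genes higher and 22.2% lower on the neuron arrays. Of the 8 microglia genes tested, 5 were called higher and 0 lower. Of the 5 genes well above background on all 4 arrays, 2 were called: Tyrobp rose by 3.67 log2 units (SE 0.55) and C1qb by 2.48 (SE 0.44), each higher in both sources. A fit of only the 5495 genes detected on all 4 arrays called the same 2, where 909 of all genes were called higher and 1530 lower. The other 3 calls were Cd14, C1qa and Aif1, which entered the fit only through the neuron arrays, where they were high, so their calls add no independent support. Their fitted size rests on stem cell signals at background: 9.13, 6.80 and 6.08 as measured, 7.15, 4.93 and 4.61 with the stem cell side set to the lowest signal well above background, and 4.78, 2.56 and 2.22 with normexp background correction. C1qc stood at -0.08 (SE 0.65), P2ry12 at -0.11 (SE 0.46) and Csf1r at 0.95 (SE 0.72), with adjusted p of 0.938, 0.877 and 0.297.

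The size of these p-values cannot be relied on, because limma's estimate of how far genes share a spread was infinite in 7 of the 13 settings tried and finite in 6. Over the settings in which each gene was tested, the adjusted p lay between 1.14e-50 and 0.000575 for Cd14, between 9.41e-21 and 0.00262 for C1qa, and between 5.77e-17 and 0.00281 for Aif1. It lay between 5.11e-12 and 0.0116 for Tyrobp, so each of these 4 genes was called in every setting that tested it. C1qb was called in 12 of 13, with an adjusted p of 0.132 under scaling to spike-in controls. C1qc was called in 2 of 13, with its other probe and with the mean over probes. P-values here rest on the difference between the state changes of the 2 sources, which is the only residual of the fit. They measure no spread between cultures or between slides.

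The partners of these genes were read beside them, by role. The ligand of Csf1r, Csf1, had levels of 0.82, 0.18, 2.77 and 2.79 and was higher on the neuron arrays by 1.95 and 2.61. Il34, the other ligand, had no named probe here. Cx3cl1, the membrane-bound ligand of Cx3cr1, was bright on all 4 arrays, with signals of 3604.9, 3914.3, 48724.0 and 12988.7. It was higher by 3.03 and 1.90, although its receptor was at background. On the receptor side of Cd14, Tlr4 was well above background on the neuron arrays only, by at least 3.44 and at least 4.97. Its partner Ly96 was higher by 1.28 and 2.85, the adaptor Myd88 by 1.30 and 2.05, and Lbp, which delivers lipopolysaccharide to Cd14, by at least 4.28 and at least 3.33.

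Of the 12 ligands and partners listed, 7 were named on the array, and 6 of 7 (hippocampus) and 7 of 7 (olfactory bulb) were higher by 2-fold or more, with medians of 1.95 and 2.85. Over all genes 21.9% and 26.9% were higher, with medians of -0.32 and 0.08. Tlr4 and Lbp entered only through the neuron arrays, where they were high, so they add no independent support to these counts. The limma state term called all 7 higher, these included, against 22.5% of all genes. It called 6 of 7 when the spread was given no trend with the mean level. Syk, the kinase downstream of Tyrobp, was the one past 2-fold in olfactory bulb cells only, and was singled out after its values were seen. It was higher by 0.26 and 4.0, from signals of 34.2, 57.9, 67.6 and 820.0.

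The complement genes outside C1q were mostly higher on the neuron arrays too, in the classical and in the alternative pathway. C1s, a protease of the C1 complex that C1q activates, was higher by 7.27 (154.3-fold) and 8.05 (265.1-fold) on the neuron arrays. Serping1, the inhibitor of that protease, was higher on the neuron arrays by both of its probes, which disagreed in size. The probe used was not well above background on the stem cell arrays and gave at least 12.51 and at least 11.55, while the second was well above background there, at signals of 36.7 and 45.4, and gave 5.65 and 4.70. C3, the central component, was higher by at least 7.04 and at least 6.15, and C4a by at least 5.85 and 7.50. Of the alternative pathway, Cfd was higher by at least 11.04 and at least 14.32 and Cfb by at least 6.97 and at least 7.82. C2 was higher by 3.63 and 3.04.

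Of 20 complement cascade and regulator genes listed, 15 were named on the array. In hippocampal cells 10 of 14 compared were higher by 2-fold or more and 0 lower, with a median of 4.87, and in the cells of the olfactory bulb 13 of 15 and 0, with a median of 3.89. Over all genes 21.9% and 26.9% were higher. The difference was a bound for 10 of the 14 and 10 of the 15 genes. Those genes entered only through the neuron array, where they were high, and add no independent support to the counts and medians. C1s, C2, Masp1 and Cr1l were well above background on all 4 arrays. Cr1l was at 0.63 and 1.46, and Masp1, by the probe used, at -0.69 and -0.41. Other probes of Masp1 went the other way, at 1.33 and 0.90 and at least 1.81 and 2.22. The limma state term called 11 of 15 higher and 0 lower, with the same limit, against 22.5% and 22.2% of all genes. C1r, the other protease of the C1 complex, had no named probe here. The summed signal of the 15 genes was 2.92 and 2.11 times the 75th percentile on the stem cell arrays, and 228.6 and 409.0 times on the neuron arrays.

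The wider list of microglia and macrophage genes split in the same way between genes that were detected and genes that were not. Of 38 listed, 23 were named on the array, and 13 of 17 compared were higher and 1 lower in hippocampal cells, with a median of 2.18. In the cells from the olfactory bulb the counts were 14 higher and 0 lower of 18, with a median of 2.65. The limma state term called 14 of 18 higher and 1 lower, against 22.5% and 22.2% of all genes. By 2-fold, 21.9% of all genes were higher in hippocampal and 26.9% in olfactory bulb cells. Bounds made up 10 of the 17 and 11 of the 18 differences. The genes with bounds passed the filter only through the neuron array, where they were high, and add no independent support. The transcription factor gene Runx1 (6.19 and 6.81) was higher in both sources. So were the lysozyme gene Lyz2 (at least 4.40 and 4.88), the nucleotide receptor gene P2ry6 (at least 4.18 and 3.76), Adgre1, which encodes the macrophage protein F4/80 (at least 3.29 and 3.57), and the phagocytic receptor gene Mertk (at least 3.05 and 3.75). The Fc receptor gene Fcgr2b was higher by at least 2.18 and 5.59, and Fcgr3a by at least 1.80 and 2.12.

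Spi1, which encodes PU.1, was not well above background on any array, with signals of 2.70, 3.26, 3.83 and 5.14. Neither were P2ry13, Slc2a5, Cd4 and Bin2, so 5 of the 23 genes were undetected throughout, beside Itgam and Cx3cr1. Over all 8927 genes 20.3% were well above background on no array, a similar share. Of 8 markers of monocytes, neutrophils and lymphocytes named on the array, 1 to 3 were well above background on any one array, and S100a9, Cd2 and Gzmb were among those on none. Their summed signal ranged from 0.385 to 0.588 times the 75th percentile.

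**Figure D3:**
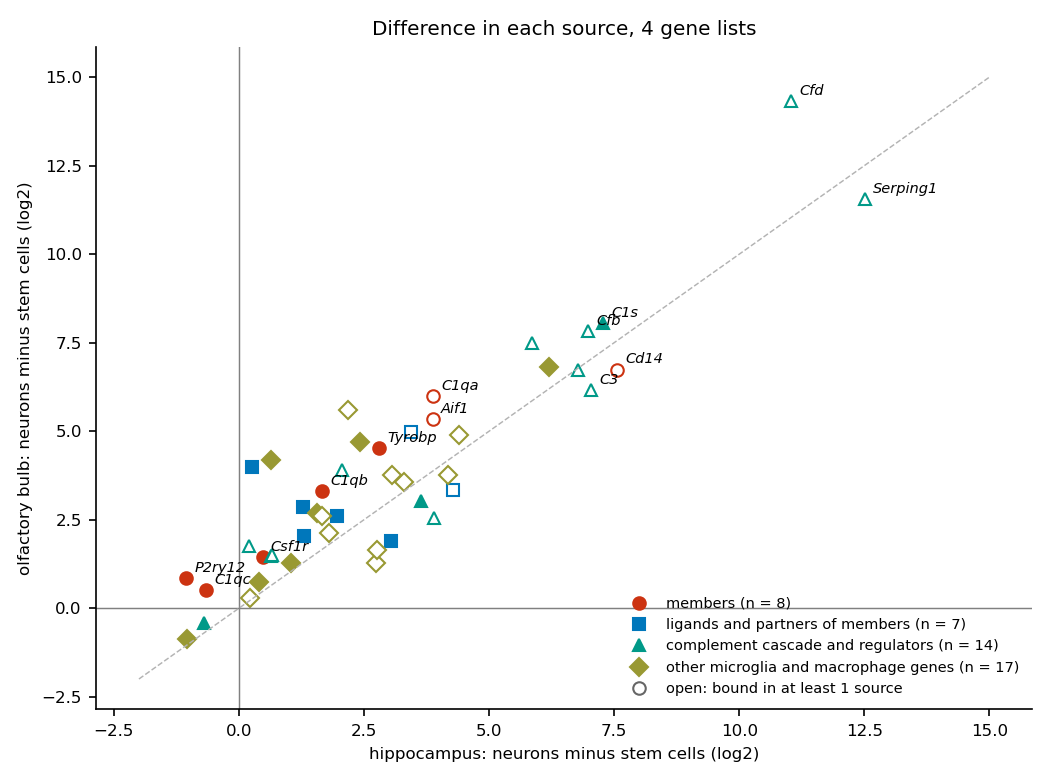
Difference between neurons and stem cells in hippocampus (horizontal axis, log2) against that in olfactory bulb (vertical axis, log2) for the microglia genes and 3 related lists; each point is a gene, open points are bounds in at least 1 source, and the dashed line marks equal differences. Cfd and Serping1 lie farthest out, Cd14 lies among the complement genes, and P2ry12 and C1qc lie left of 0 on the hippocampal axis.

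The second comparison asked how olfactory bulb and hippocampal cultures differed within a state. Among the stem cells, 0 of the 5 microglia genes compared differed by 2-fold or more, where 4.17% of 6026 genes were higher and 6.97% lower on the OB NSC array. C1qb differed by -0.29, C1qc by -0.79, Csf1r by -0.32, Tyrobp by -0.70 and P2ry12 by 0.53. The median of all genes in this comparison was -0.43, and 91.0% of genes had a lower difference than P2ry12. Under spike-in scaling that median became 0.42 and all 5 genes were at 0.06 or more.

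Among the neurons, 4 of 8 genes were higher by 2-fold or more on the OB Neu array and 1 was lower, where 7.66% of 6999 genes were higher and 8.0% lower. P2ry12 was higher by 2.43 (5.38-fold), C1qa by 1.55 (2.93-fold), C1qb by 1.36 (2.57-fold) and Tyrobp by 1.03 (2.05-fold), which fell short of 2-fold with normexp (0.90), median (0.94) and spike-in (0.42) scaling. Cd14 went the other way, lower by 2.59-fold, with a difference of -1.37. Aif1 at 0.92, Csf1r at 0.65 and C1qc at 0.37 did not reach 2-fold. The second probe of C1qa gave 1.48 and the other probe of C1qc gave 1.72, so with these the 3 C1q chains were 2.57-fold or more higher on the OB Neu array. The median of the 8 genes was 0.98, and that of all genes was -0.01. Under spike-in scaling that median became -0.62, and 1 of the 8, P2ry12 at 1.82, was higher by 2-fold or more.

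**Figure D4:**
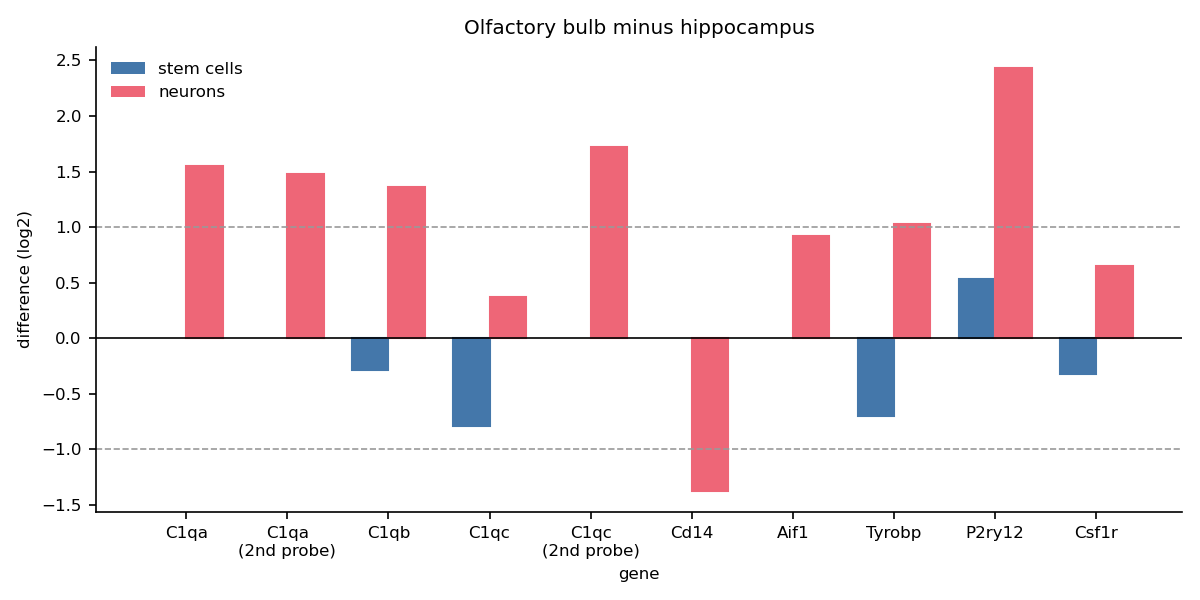
Difference between olfactory bulb and hippocampal cultures (vertical axis, log2) for each gene, with 1 bar for stem cells and 1 for neurons; dashed lines mark 2-fold. A gene with no bar was well above background on neither array. In neurons P2ry12 is the tallest bar and Cd14 the only one below 0.

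The limma source term, which averages over both states, called 0 of the 8 microglia genes at an adjusted p under 0.05, and 1 of 8 at an unadjusted p under 0.05. Over all 7111 genes it called 0.534% higher and 1.76% lower at the adjusted threshold, and 632 had an unadjusted p under 0.05. The gene nearest the threshold was P2ry12, higher by 1.48 (SE 0.46) in olfactory bulb cells and higher in both states, with an adjusted p of 0.0573. That value ranged from 0.049 to 1 over the 13 settings and passed in 1 of them, the one restricted to genes detected on all 4 arrays. Cd14 stood at -0.93 (SE 0.59) with an adjusted p of 0.711.

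The partners and the wider lists differed between sources in both directions. In neurons Cx3cl1 was lower on the OB Neu array by 3.38-fold and Lbp by 2.84-fold, as Cd14 was. Syk was higher there by 13.5-fold, while Tlr4 was at 0.98 and Csf1 at 0.01. The limma source term called 1 of the 7 partners higher and 1 lower, against 0.534% and 1.76% of all genes. With no trend in the spread it called 0 and 0. Of the complement genes, 4 of 15 were higher and 3 lower in OB Neu, with C3 (-1.44) and Serping1 (-1.51) lower and C4a (1.85) and Cfd (2.73) higher. Of the 18 wider microglia and macrophage genes compared, 2 were higher and 2 lower. Over all 6999 genes in this comparison 7.66% were higher and 8.0% lower, so the counts of the wider list lay near those shares. Fcgr2b (2.85) was among those higher.

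The signed change from stem cell to neuron was set against that of the other source for the 5 genes measured on all 4 arrays. The olfactory bulb change minus the hippocampal change was 1.89 log2 units for P2ry12, 1.73 for Tyrobp, 1.65 for C1qb, 1.16 for C1qc and 0.97 for Csf1r. For P2ry12 and C1qc this joins changes of opposite sign. Under spike-in scaling the same values were 0.43, 0.27, 0.19, -0.31 and -0.50, so their size and for C1qc and Csf1r their sign depended on the scaling. Of 5495 genes measured on all 4 arrays, 20.6% differed by 1 or more in either direction, and the median over these genes was 0.34, or -1.12 under spike-in scaling. With 1 array a group this difference of changes cannot be tested, and it is the residual of the additive model.

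Genes with the most similar profile were found by the distance between 4 levels, each centred on its own mean, over the 4 arrays. The nearest to C1qb were Abhd5, Naprt and Tcea3, at distances of 0.16, 0.19 and 0.21 log2 units. The nearest to Tyrobp were Fcgrt, Gask1b and Slc8b1, at 0.19, 0.22 and 0.23. Csf1r was nearest to Ndfip1, Cnnm2 and Slc12a8, at 0.05, 0.06 and 0.09, and the probe of C1qc used was nearest to Hsd17b11, Atox1 and Pdzk1ip1, at 0.04, 0.06 and 0.08. P2ry12 had more distant neighbours, Ppargc1b, Capn6 and Ehhadh, at 0.40, 0.44 and 0.53. With 4 arrays many genes lie near any profile, and none of the microglia genes was among these neighbours.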

How the data were processed

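RNA of 4 groups of cultured cells, each pooled from 3 independent experiments, was hybridised to 4 Agilent 1-colour (Cy3) arrays. The signal intensity of each spot in the deposited files was made with Agilent Feature Extraction 10.5.1.1, per the submitters' processing notes. Per the file headers, local background was subtracted and spatial gradients were corrected, with no step between arrays. The authors' value table held the same intensity values (largest difference 0.0).

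Spots marked as outliers were dropped, spots of a probe averaged, and log2 intensities scaled to each array's 75th percentile over non-control probes. Of 41012 probes 254 were left out, and 0 spots were saturated. Accessions were matched without versions to a RefSeq gene table of GRCr8, used for names only, since the headers name another build for the probe design. Of 40758 probes 10783 had 1 symbol, 0 several and 29975 none. A gene's value is that of its probe with the highest mean. A gene entered a comparison when well above background on at least 1 of its 2 arrays. A side not well above background was set to the higher of its own signal and the lowest signal well above background on its array, which gives a bound. Genes at 1 log2 unit or beyond, which is 2-fold, count as higher or lower. Precision is limited by having 4 arrays. limma 3.58.1 (lmFit, eBayes with trend, R 4.3.3) fitted state and source, and was tested on simulated data.

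The scaling was first run with the percentile over spots. It was changed to probes, the wording of the written design, after those results had been seen; both are given in the closing section. The genes, lists and tests were chosen with earlier results of these data known. Named genes are the 10 members, listed partners, and from each list at most 8 genes past 2-fold the same way in both sources or both states; some genes the rule takes are not reported here. Alternatives were normexp (offset 50, on the median spot signal, since no mean signal was used), quantile, median and spike-in scaling, filters on dim probes, the mean over probes, the authors' table, floored values, the other C1qc probe and a fit with no trend.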

Additional observations from a re-analysis of the deposited data

Results flagged for a closer look

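P2ry12 and C1qc differed between neurons and stem cells in opposite directions in the 2 sources. P2ry12 was at -1.05 in hippocampal and 0.84 in olfactory bulb cells, and C1qc, by the probe used, at -0.66 and 0.50. For neither gene was the difference between sources tested, since each group is 1 array. Under spike-in scaling P2ry12 was at -0.61 and -0.19, and C1qc at -0.22 and -0.52, the same sign in both sources. The other probe of C1qc was higher in both, with at least 1.21 and at least 3.48.

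The olfactory bulb minus hippocampus differences of 4 genes had opposite signs in stem cells and in neurons: C1qb -0.29 and 1.36, C1qc -0.79 and 0.37, Csf1r -0.32 and 0.65, and Tyrobp -0.70 and 1.03. These differences were not tested either. For 3 of the 4 the opposite signs rest on the scaling: under spike-in scaling C1qb was at 0.56 and 0.75, Csf1r at 0.54 and 0.04, and Tyrobp at 0.16 and 0.42, the same sign in both states, while C1qc was at 0.06 and -0.25. The median of all genes was -0.43 in the stem cell comparison and -0.01 in the neuron comparison.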

How the results depend on the processing

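The scaling was chosen with both of its versions seen. With the 75th percentile taken over spots, which was run first, the counts of microglia genes were the same in all 4 comparisons and in the fit (5 for state, 0 for source). The fit itself moved: over all genes the source term then called 0 higher and 1 lower, against 38 and 125, with a prior of 8.53 degrees of freedom against an infinite one, and the adjusted p of P2ry12 for source was 0.543 against 0.0573. The fit with no trend, added after the calls were seen, called 5 and 0 microglia genes, and 0 of all genes for source against 399 at an unadjusted p under 0.05. Over the 13 settings all-gene source calls ranged from none to those reported, and spike-in scaling cut state calls to 911 higher and 358 lower, from 1603 and 1576.

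Fitting or comparing only genes well above background on every array compared left 2 genes higher in hippocampal and 3 in olfactory bulb cells, a hippocampal median of 0.47 and 2 state calls, because Cd14, Aif1 and C1qa could then not be compared by state. The source term then called 1 gene, P2ry12, with an adjusted p of 0.049 over 5495 genes against 0.0573 over 7111. The count lower in hippocampal cells was 0 with normexp and spike-in scaling and 2 with quantile and median scaling. Under spike-in scaling 1 gene was higher in each source comparison. The neuron source median was 1.03 with quantile normalization, 1.04 with the mean over probes and 1.20 with the other C1qc probe, all past 2-fold. Where not stated, the cause was not tested. Of 116 values of single genes under normexp, quantile, median and spike-in scaling, which move every value, 102 kept their side of 2-fold, 11 fell short of it, 3 newly passed it and 0 past it changed sign.

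Spike-in scaling moved the median of all genes from -0.32 to 0.12, 0.08 to -0.90, -0.43 to 0.42 and -0.01 to -0.62 in hippocampal state, olfactory bulb state, stem cell source and neuron source, and the share of called genes that were higher from 44.9% to 66.5%, 57.4% to 25.4%, 37.4% to 93.9% and 48.9% to 14.5%. Median scaling moved that share to 28.8% and 37.0% in the 2 state comparisons. No paired analysis was possible because the labels give no replicate numbers and each group has 1 array; the additive fit already sets neurons against stem cells within each source. No array could be left out. Signals near background limit Csf1r, and for Itgam and Cx3cr1 no difference was detectable.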

Other observations

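Ctss, the gene of the lysosomal protease cathepsin S, is in the wider microglia list and was singled out after its values were seen. Its signals were 157.6, 30.9, 407.3 and 499.3 in the stem cells of hippocampus and olfactory bulb and in the neurons of hippocampus and olfactory bulb. It was lower on the OB NSC than on the HPC NSC array by 8.56-fold, with 0.415% of genes at a lower difference, and a second probe gave -3.33 against -3.10. From stem cells to neurons it differed by 0.64 in hippocampal and 4.19 in olfactory bulb cells.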
